A study of Homo sapiens with 12 samples.

Results

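The 95 genes described here encode the nuclear subunits of the mitochondrial respiratory chain and of the ATP synthase, with some of the factors that assemble complex I. They were chosen by symbol from 19970 RefSeq protein-coding genes of chromosomes 1 to 22 and X: every gene whose symbol begins with NDUFA, NDUFB, NDUFC, NDUFS, NDUFV, UQCR, ATP5F1, ATP5M or ATP5P, the COX genes of subunits 4 to 8, and SDHA, SDHB, SDHC and SDHD. The rule uses symbols and no measured value. The set holds 37 genes of complex I, 8 complex I assembly factors (NDUFAF genes, which the symbol rule takes in), 4 of complex II, 9 of complex III, 17 of complex IV, 18 of complex V (the ATP synthase) and 2 read-through loci, ATP5MF-PTCD1 and NDUFC2-KCTD14, in which transcription runs from a member into its neighbour. The 85 subunit genes are the rest of the set without assembly factors and read-through loci.

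Chromatin was examined in Huh7, an established human hepatocellular carcinoma line, by ChIP-seq, which sequences the DNA held by a chosen histone mark. Wild-type cells were kept for 48 h in choline-free DMEM, with B-27 supplement standing in for serum, and choline chloride was put back at 0 µM or 15 µM. H3K27ac (acetylation of lysine 27 of histone H3) is found at active promoters and enhancers, and H3K4me1 (a single methyl group on lysine 4) at enhancers and on the flanks of promoters. Of 12 samples in the series, 4 were used, 1 for each mark and dose, each as a list of summits (the points of highest signal within called peaks). With 1 library for each mark and dose, no difference between the doses has a replicate check, and none carries a p-value. Read depth is unknown, and the number of summits in a list depends on it. The intervals given for shares are exact Clopper-Pearson 95% intervals and cover counting error only.

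The respiratory chain passes electrons from NADH (through complex I) and succinate (through complex II) to ubiquinone, then through complex III and cytochrome c to complex IV, which reduces oxygen. Complexes I, III and IV pump protons across the inner mitochondrial membrane, and the ATP synthase uses the gradient to make ATP. The genes measured here are nuclear, are expressed in nearly all cells, and are known to be regulated through promoter elements for NRF1, for ETS-family factors such as GABPA and for YY1. Hepatocytes hold many mitochondria, and their oxidation of fatty acids and amino acids feeds this chain.

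Promoter sequence is shown first, for the elements through which these genes are known to be regulated. RefSeq promoter windows of GRCh38.p14 had 300 bases each, with 250 before the listed gene start and 50 from it on. They were matched by gene identifier for 77 of the 95 genes. In the sequences, written 5′ to 3′ on the gene's strand, capitals mark letters that match NRF1 (GCGCANGCG), ETS (CCGGAAG) or YY1 (AAGATGGCG) on either strand, and overlapping matches run together. ATP5PF (chr21:25735005-25735304, minus strand, peripheral stalk of the ATP synthase) has all 3 kinds of match, shares its promoter region with GABPA, and had H3K27ac at both doses. ATP5MG (chr11:118401356-118401655, plus strand, membrane part of the ATP synthase) and COX4I1 (chr16:85799445-85799744, plus strand, regulatory subunit of complex IV) have an ETS match within 2 bases of the start and also had H3K27ac at both doses. UQCR11 (chr19:1605413-1605712, minus strand, small subunit of complex III) and NDUFB4 (chr3:120596086-120596385, plus strand, membrane arm of complex I) had H3K27ac at 0 µM choline alone. SDHA (chr5:218070-218369, plus strand, flavoprotein of complex II) and UQCR10 (chr22:29767119-29767418, plus strand, small subunit of complex III) had it at 15 µM alone.
ATP5PF: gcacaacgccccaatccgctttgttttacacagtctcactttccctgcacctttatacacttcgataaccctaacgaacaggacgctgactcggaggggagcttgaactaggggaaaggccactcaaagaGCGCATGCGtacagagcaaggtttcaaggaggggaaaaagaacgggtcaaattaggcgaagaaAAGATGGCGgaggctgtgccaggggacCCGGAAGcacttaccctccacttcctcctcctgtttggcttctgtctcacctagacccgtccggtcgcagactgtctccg
ATP5MG: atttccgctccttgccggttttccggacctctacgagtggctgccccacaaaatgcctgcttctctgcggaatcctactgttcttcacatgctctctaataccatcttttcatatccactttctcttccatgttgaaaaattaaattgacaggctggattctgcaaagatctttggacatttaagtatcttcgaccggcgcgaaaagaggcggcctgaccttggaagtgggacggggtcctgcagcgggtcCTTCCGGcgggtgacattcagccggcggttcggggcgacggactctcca
COX4I1: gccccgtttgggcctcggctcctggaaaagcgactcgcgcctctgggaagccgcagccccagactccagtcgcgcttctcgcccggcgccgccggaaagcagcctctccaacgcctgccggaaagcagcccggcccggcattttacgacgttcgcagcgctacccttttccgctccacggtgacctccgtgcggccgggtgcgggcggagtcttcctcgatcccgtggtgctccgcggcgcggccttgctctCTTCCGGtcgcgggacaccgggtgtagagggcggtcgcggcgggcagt
UQCR11: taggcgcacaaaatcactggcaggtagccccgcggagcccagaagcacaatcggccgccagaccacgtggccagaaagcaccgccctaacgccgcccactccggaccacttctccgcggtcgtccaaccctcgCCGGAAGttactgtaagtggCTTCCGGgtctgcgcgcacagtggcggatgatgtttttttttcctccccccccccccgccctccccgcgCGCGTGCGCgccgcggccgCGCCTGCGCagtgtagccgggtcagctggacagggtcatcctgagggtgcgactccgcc
NDUFB4: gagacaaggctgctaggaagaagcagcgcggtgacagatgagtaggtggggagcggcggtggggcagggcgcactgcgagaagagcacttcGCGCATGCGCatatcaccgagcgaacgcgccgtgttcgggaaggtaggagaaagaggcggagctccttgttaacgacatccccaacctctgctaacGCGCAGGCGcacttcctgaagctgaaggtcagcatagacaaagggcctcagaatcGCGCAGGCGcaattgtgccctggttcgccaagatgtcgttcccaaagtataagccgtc
SDHA: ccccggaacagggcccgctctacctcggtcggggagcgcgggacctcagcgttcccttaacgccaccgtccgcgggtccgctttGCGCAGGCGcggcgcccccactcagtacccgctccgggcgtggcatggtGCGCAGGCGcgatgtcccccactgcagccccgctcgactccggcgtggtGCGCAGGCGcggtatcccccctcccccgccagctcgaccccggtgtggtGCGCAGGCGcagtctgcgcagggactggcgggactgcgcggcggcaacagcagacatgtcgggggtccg
UQCR10: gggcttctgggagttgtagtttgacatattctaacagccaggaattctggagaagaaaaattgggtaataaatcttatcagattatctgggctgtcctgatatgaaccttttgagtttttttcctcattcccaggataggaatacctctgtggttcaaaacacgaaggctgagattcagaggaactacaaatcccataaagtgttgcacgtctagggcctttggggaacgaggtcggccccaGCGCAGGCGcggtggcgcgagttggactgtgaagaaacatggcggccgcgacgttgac

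The letters of NRF1 occurred in 23 of the 77 promoter windows (29.9%, interval 19.97 to 41.4), against 11.0% of 15812 promoter windows of all protein-coding genes. ETS letters occurred in 22 (28.6%, interval 18.8 to 40.0) against 14.1%, and YY1 letters in 9 (11.7%, interval 5.49 to 21.0) against 2.69%. For all 3 the share over all promoters lay below the members' interval. Higher shares than over all promoters were also found in other families: ETS letters occurred in 42.0% of mitochondrial ribosomal protein, 33.8% of cytosolic ribosomal protein and 31.8% of proteasome promoters, and YY1 letters in 18.8%, 8.82% and 4.55%. NRF1 letters occurred in 18.8% (interval 10.4 to 30.1), 11.8% (5.22 to 21.9) and 11.4% (3.79 to 24.6) of them. Each of these shares lay below the members' interval, but each family's own interval overlapped it. The other motifs searched, on both strands, were a GC box (GGGCGG), a KLF-type element (GGGNGTGG), a TATA box (TATAAA) and an oestrogen-related receptor element (TNAAGGTCA), and the members' shares of these were 57.1%, 15.6%, 9.09% and 2.60% against 58.3%, 19.7%, 9.75% and 0.664%. Each of those 4 background shares lay inside the members' interval. The median window held 22 CpG dinucleotides in both sets and was 61.0% G+C in the members against 62.7% in all genes, so the members' windows did not hold more CpG. A match describes the letters and not a bound site. The motifs were counted separately, and matches of different motifs may overlap.

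**Figure D1:**
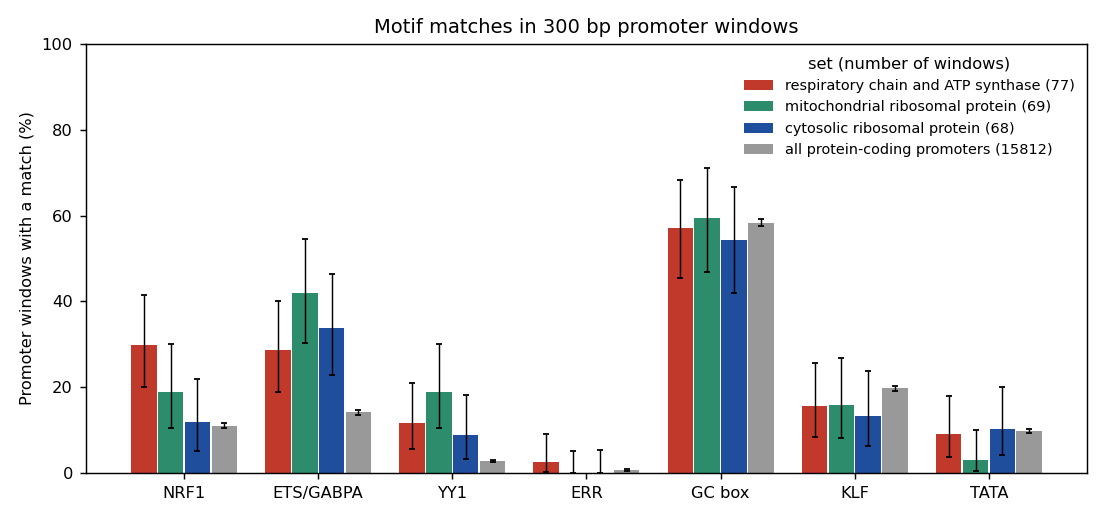
Share of 300-base promoter windows with a match to each motif on either strand (y axis, %) for 77 respiratory chain and ATP synthase genes, 69 mitochondrial and 68 cytosolic ribosomal protein genes and 15812 protein-coding genes, with exact 95% intervals. NRF1, ETS and YY1 letters were more frequent in the respiratory chain set than over all promoters, and GC box, KLF and TATA letters were not.

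Within the set, matches sat close to the start. NRF1 matches had a median offset of -63 bases and ETS matches one of -41.5 bases, while YY1 matches lay just inside the gene, at a median of 16 bases. These offsets resembled those of the same letters over all promoters (-63, -46 and 11 bases). More than 1 separate NRF1 match was present in 6 of 77 windows (7.79%, interval 2.91 to 16.2) against 2.10% over all promoters. SDHA had 4, spaced at 49, 49 and 49 bases, and the 29 bases around successive matches were identical at 19, 24 and 24 positions, as its sequence shows. NRF1 letters were found in 5 of the 25 windows of members with an H3K27ac gene end at 0 µM and in 18 of the 52 without one. ETS letters were found in 10 of 25 and 12 of 52. YY1 letters were found in 1 of 25 and 8 of 52. Among all genes with an H3K27ac end at 0 µM the shares were 16.6% for NRF1, 22.7% for ETS and 4.84% for YY1, each above that of all promoters. The members' counts are small and their differences were not tested.

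The members also lay close to other genes. A different protein-coding gene had an end within 1 kb of an end of 48 of 95 members (50.5%, interval 40.1 to 60.9), against 28.6% of all genes. Starting points of a divergent neighbour lay within 1 kb upstream (or overlapping by up to 100 bases) for 29 of 77 members (37.7%, interval 26.9 to 49.4), against 12.5% of all genes with a listed start. ATP5PF faces GABPA, NDUFS1 faces EEF1B2 (a translation elongation factor subunit), SDHA faces CCDC127, UQCR10 faces ZMAT5, COX4I1 faces EMC8, UQCRH faces LRRC41 and ATP5F1C faces KIN. A summit between such a pair cannot be assigned to either gene. Among the mitochondrial ribosomal protein genes 30.4% had a divergent neighbour, a value inside the members' interval.

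The next comparison asked which members carried H3K27ac at a gene end and whether that differed between the doses. A gene end was called marked when a summit lay within 1 kb of either annotated end. It was called lost when it was marked at 0 µM and the 15 µM list had no summit within 2 kb of either end, and gained in the reverse case. At 0 µM, 36 of 95 members were marked (37.9%, interval 28.1 to 48.4) against 28.3% of all protein-coding genes. At 15 µM, 17 were marked (17.9%, interval 10.8 to 27.1) against 16.2%. Of the 36, 21 were lost (58.3%, interval 40.8 to 74.5) against 43.9% over all genes, and of the 17, 5 were gained (29.4%, interval 10.3 to 56.0) against 10.5%. Each of these 4 background shares lay within the members' interval, those for marked ends at 0 µM and for gained ends close to its lower bound. Within 500 bp of an end, 31.6% of members were marked at 0 µM (interval 22.4 to 41.9). The all-gene share there, 21.8%, lay just below that interval. Within 2 kb the all-gene share of 32.3% lay inside the members' interval (32.0 to 52.7). Whether the members' share at 0 µM was told apart from that of all genes thus depended on the distance. The shorter list at 15 µM (29305 summits against 37946 at 0 µM) bears on the comparison of the doses, and its part in the members' loss was not tested. When both lists were taken at 29305 summits, 19 of 34 marked members were lost (55.9%), against 40.7% of all genes.

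**Figure D2:**
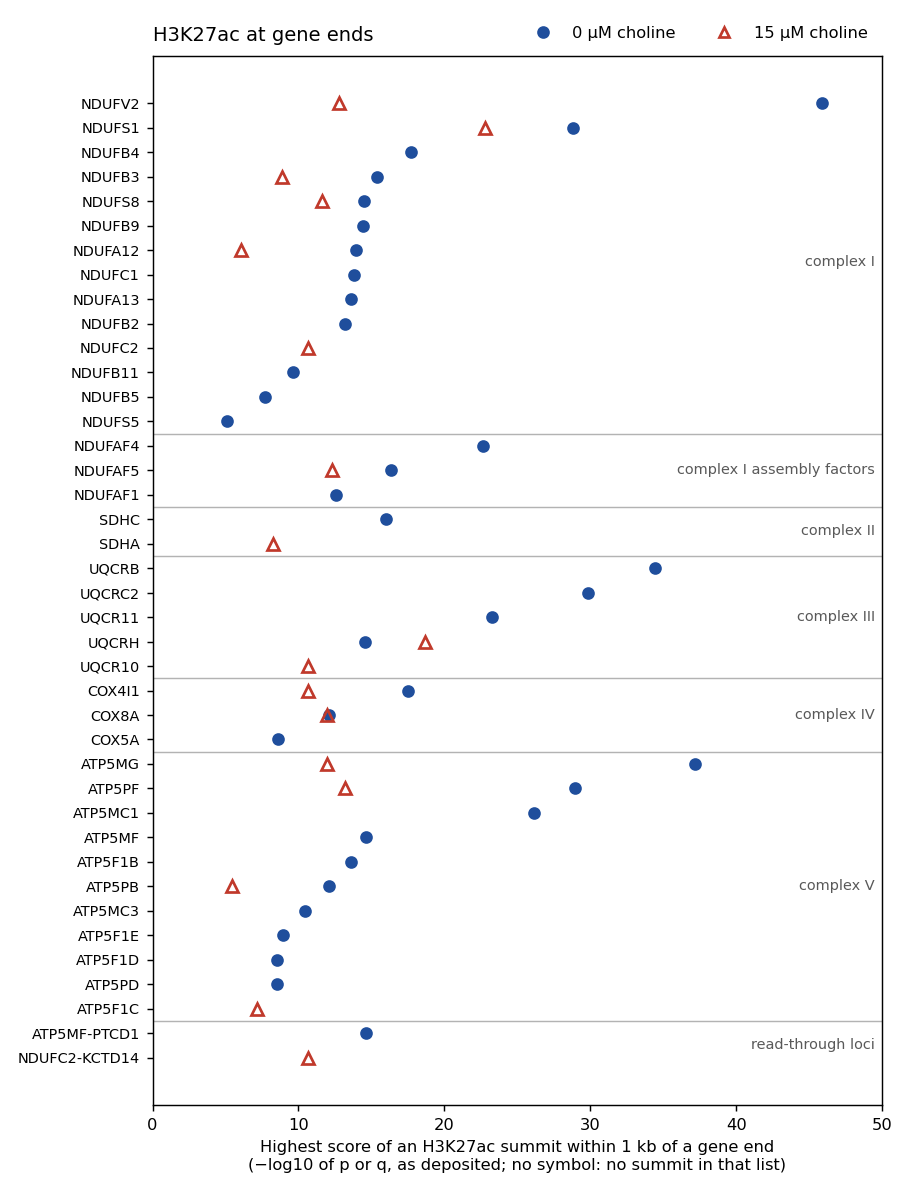
Highest score of an H3K27ac summit within 1 kb of a gene end (x axis, −log10 of p or q as deposited) for members marked at 0 µM (filled circles) or 15 µM (open triangles), ordered by complex (y axis). Most rows hold a circle alone, 12 hold both symbols, and 5 hold a triangle alone.

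In complex I, 14 of 37 genes were marked at 0 µM (37.8%, against 28.3% of all genes) and 6 at 15 µM (16.2%, against 16.2%). The 5 marked at both doses included core subunits that hold iron-sulfur clusters. NDUFV2, in the module that oxidises NADH, had a highest score of 45.9 at 0 µM and 12.8 at 15 µM. This was the highest score among the members at 0 µM. NDUFS1, the largest core subunit, had scores of 28.8 and 22.8, the latter the highest among the members at 15 µM. NDUFS8, near the quinone site, had 14.5 and 11.6. The accessory subunits NDUFB3 (15.4 and 8.87) and NDUFA12 (13.9 and 6.08) completed the group. A score is the peak caller's −log10 of p or q within its own list, given by the authors, so scores of the 2 doses stand side by side as a description. For NDUFB3 the summits of the 2 lists were at 201072162 and 201072160 of chromosome 2. They lie 2 bases apart, the smallest shift among the members marked at both doses. In the other genes of this group the highest summits were 13 bp (NDUFS8), 23 bp (NDUFS1), 207 bp (NDUFA12) and 511 bp (NDUFV2) apart.

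The complex I genes lost at 15 µM included NDUFB4 (score 17.7 at 0 µM), NDUFB9 (14.4), NDUFA13 (13.6), NDUFB2 (13.2), NDUFB11, NDUFB5 and NDUFS5. These encode accessory subunits, the NDUFB genes those of the membrane arm, and NDUFA13 is also known as GRIM-19. The distance to the nearest 15 µM summit varied widely among them. It was 3126 bp for NDUFB5, not far past the 2 kb limit, and 221473 bp for NDUFB9. NDUFB2, NDUFB4, NDUFB9 and NDUFB11 had no H3K27ac summit within 50 kb of an end at 15 µM. NDUFC1, a small membrane-arm subunit, was marked at 0 µM and had a 15 µM summit 1435 bp from an end, so it was neither kept nor lost. NDUFC2, its partner in name and a membrane-arm subunit, was gained, with a 15 µM summit of score 10.7 placed 735 bp inside its end and a nearest 0 µM summit at 5396 bp. That summit is the same one that counts for the overlapping locus NDUFC2-KCTD14.

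The assembly factors of complex I were marked in 3 of 8 cases at 0 µM (37.5%, against 28.3% of all genes). NDUFAF5, which modifies a core subunit, was marked at both doses with scores of 16.4 and 12.3. NDUFAF4 (22.6 at 0 µM) and NDUFAF1 (12.6), which acts in assembly of the membrane arm, were lost, and the nearest 15 µM summit to NDUFAF4 was 366191 bp away. Over the 8 factors, summits within 50 kb numbered 14 at 0 µM and 4 at 15 µM, a ratio of 0.286. Over all genes the count fell as well, with a ratio of 0.705, and the factors' counts are small.

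Complex II, the succinate dehydrogenase, has 4 genes, and its marks went both ways. SDHC, a membrane anchor, had a 0 µM score of 16.0 and no 15 µM summit within 34791 bp. SDHA, which holds the FAD that succinate reduces, had no 0 µM summit within 623834 bp. At 15 µM it had a summit of score 8.27 at position 218022 of chromosome 5, which is 298 bp upstream of the listed start and lies toward CCDC127. SDHA has near-identical pseudogene copies, and how reads with several positions were treated is not given in the sources used here. SDHB, the iron-sulfur subunit, and SDHD, the other anchor, had no H3K27ac summit within 50 kb at either dose.

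In complex III, 4 of 9 genes were marked at 0 µM (44.4%, against 28.3% of all genes). Of these 4, 3 were lost (75.0%, interval 19.4 to 99.4, against 43.9% of all genes): UQCRB (score 34.4), UQCRC2 (29.9), a core protein of the matrix side, and UQCR11 (23.3). These 3 scores were above the members' median of 14.5 at 0 µM. UQCRH, the hinge protein that contacts cytochrome c1, was marked at both doses with 14.6 and 18.7. UQCR10 was gained, at 117 bp upstream of its start with a score of 10.7, and its nearest 0 µM summit was 40125 bp away. UQCRFS1, which encodes the Rieske iron-sulfur protein, UQCRC1, UQCRQ and UQCRHL, a near-copy of UQCRH, had no marked end at either dose.

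Complex IV had the lowest share of marked ends among the complexes, 3 of 17 at 0 µM (17.6%) and 2 at 15 µM (11.8%). The shares over all genes were 28.3% and 16.2%. No complex IV end was lost or gained by the rule. COX4I1 had scores of 17.5 and 10.7, from summits 341 bp upstream and 192 bp downstream of its start. COX8A, a small membrane subunit, had 12.1 and 11.9. COX5A was marked at 0 µM with a 15 µM summit 1047 bp from an end. The 14 unmarked genes included tissue-restricted isoforms such as COX6A2, COX7A1, COX7B2 and COX8C, and also COX5B, COX6B1, COX6C and COX7C, which most cells use. The 17 genes thus had few summits at their outermost ends, but COX7A2 and COX7A2L had a 0 µM summit at a listed start inside the outermost one.

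Of the 18 ATP synthase genes, 10 were marked at 0 µM (55.6%, interval 30.8 to 78.5, against 28.3% of all genes) and 4 at 15 µM (22.2%, against 16.2%). ATP5MG had scores of 37.2 and 11.9, ATP5PF 29.0 and 13.2, and ATP5PB, the b subunit of the peripheral stalk, 12.1 and 5.43. These 3 were marked at both doses, and none of them belongs to the catalytic head. Of the 10, 6 were lost (60.0%, interval 26.2 to 87.8, against 43.9% of all genes): ATP5MC1 (26.1), ATP5MF (14.6), ATP5MC3 (10.4), ATP5F1E (8.93), ATP5PD and ATP5F1D. ATP5MC1 and ATP5MC3 encode the same mature c subunit of the rotor ring, ATP5F1E and ATP5F1D the epsilon and delta subunits of the central stalk. ATP5F1B, the catalytic beta subunit, was marked at 0 µM and had a 15 µM summit 1165 bp from an end. ATP5F1C, the gamma subunit that turns inside the head, was gained with a score of 7.13 and had its nearest 0 µM summit 41233 bp away. ATP5F1A, the alpha subunit, had a 0 µM summit at an inner start alone. The read-through locus ATP5MF-PTCD1 shared the lost summit of ATP5MF.

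Across the set, the 12 genes marked at both doses had a median shift of 85.5 bp between the highest summits of the 2 lists, with a range of 2 to 533 bp. The lost members had a median 0 µM score of 13.6 and those marked at both doses one of 15.9. Over all genes the corresponding medians were 11.3 and 18.7. Lost members thus included high-scoring summits of the 0 µM list, up to 34.4 at UQCRB. No H3K27ac end was marked at either dose for 54 members (56.8%, against 69.1% of all genes). Of these, 14 had no summit within 50 kb in either list, a count with no all-gene share beside it: NDUFA1, NDUFA7, NDUFA8, NDUFA9, NDUFA10, NDUFA11, NDUFAF8, SDHB, SDHD, UQCRFS1, COX6A1, COX6C, COX7B and ATP5ME. An empty position in a summit list shows that no peak was called there and not that acetylation was absent.

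Other gene families that most cells use were set beside the members. The 85 cytosolic ribosomal protein genes were marked in 77.6% of cases at 0 µM (interval 67.3 to 86.0) and 38.8% at 15 µM, and the interval at 0 µM did not overlap that of the members. The 77 mitochondrial ribosomal protein genes were marked in 55.8% (interval 44.1 to 67.2) and 29.9%, and the proteasome subunit genes in 25 of 50 cases and 30.0%. Lost shares were 48.5%, 53.5% and 40.0% in the same order, against 58.3% in the members. The members had the lowest share of marked ends of these 4 families at both doses, though their intervals overlapped those of the mitochondrial ribosomal protein and proteasome genes, and in all 4 families fewer ends were marked at 15 µM.

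**Figure D3:**
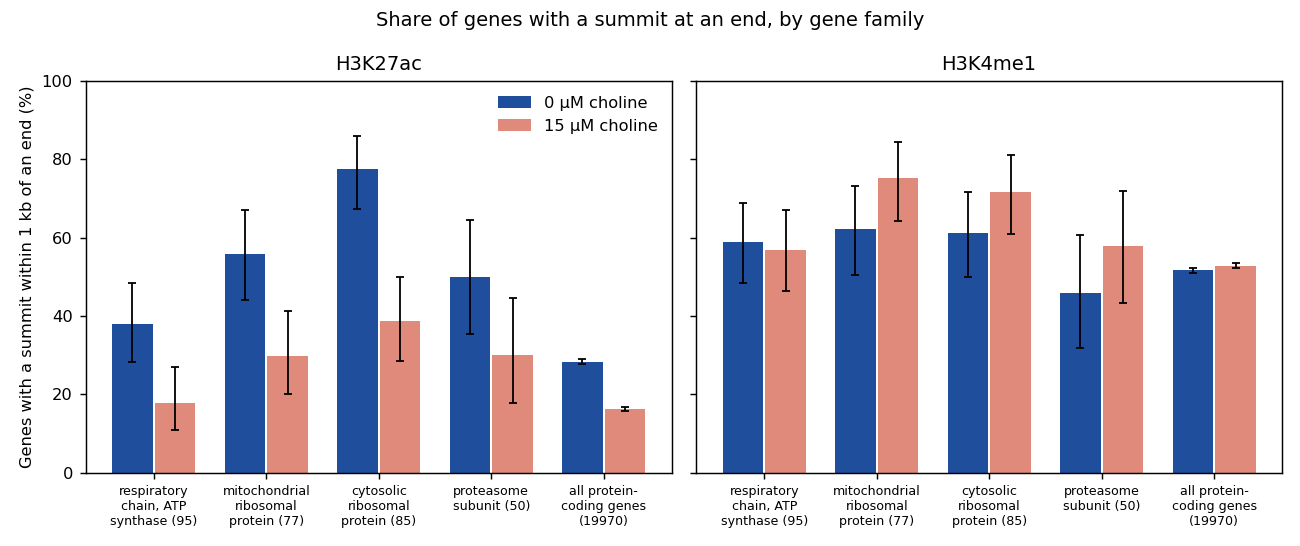
Share of genes with a summit within 1 kb of an end (y axis, %) for H3K27ac (left) and H3K4me1 (right) at 0 µM and 15 µM choline in 4 gene families and in all protein-coding genes, with exact 95% intervals as bars. H3K27ac shares were 37.9% and 17.9% for the respiratory chain and ATP synthase genes, and their H3K4me1 shares were 58.9% and 56.8%.

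Genes of the same pathway that the symbol rule leaves out were counted too. Of 52 genes for other assembly factors, cytochrome c and cytochrome c1, 33 had a marked H3K27ac end at 0 µM (63.5%, interval 49.0 to 76.4, against 28.3% of all genes). At 15 µM 18 did (34.6%, against 16.2%). Of the 33, 15 were lost (45.5%, against 43.9% of all genes). Of the 18 marked at 15 µM, 0 were gained (an upper bound of 18.5%, against 10.5%). COX20, an assembly factor of complex IV, had scores of 105 and 14.7, and ATP5IF1, an inhibitor of the ATP synthase, was marked at both doses with 9.69 and 11.6. CYCS, which is cytochrome c, and CYC1, the cytochrome c1 of complex III, were unmarked at both doses. Among 15 regulators of these genes, 10 were marked at 0 µM (66.7%, against 28.3% of all genes) and 5 at 15 µM (33.3%, against 16.2%). Of the 10, 4 were lost (40.0%, interval 12.2 to 73.8), near the 43.9% of all genes. These were TFAM and TFB2M, which act on mitochondrial DNA transcription, NRF1 and YY1. GABPA, GABPB1, SP1, POLRMT and TFB1M were marked at both doses. The GABPA summit lies in the region it shares with ATP5PF.

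The labelled cell type was checked at hepatocyte genes. Of 17 hepatocyte markers, such as albumin and the fibrinogens, 13 were marked with H3K27ac at 0 µM (76.5%, against 28.3% of all genes). At 15 µM 16 were marked (94.1%, against 16.2%). None was lost (of 13 marked, an upper bound of 24.7%, against 43.9% of all genes). Of 10 blood cell markers 1 and 2 were marked at 0 µM and 15 µM, and of 10 stromal and endothelial markers 1 and 1. With so few genes, the all-gene shares lay inside the intervals of both of these lists at each dose. The H3K27ac lists thus held summits at genes of the labelled cell type at both doses.

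The 50 kb windows around the members were compared next. H3K27ac summits within 50 kb of either end, summed over members, numbered 334 at 0 µM and 236 at 15 µM, a ratio of 0.707 against 0.705 for all genes, and windows of neighbouring members overlap. There were fewer summits at 15 µM for 57 members (60.0%, against 46.8% of all genes), more for 14 (14.7%, against 11.0%) and as many for 24. Over all 19970 genes, 8425 windows had as many summits at both doses. Unchanged windows were thus less frequent among members, and the shares with fewer and with more summits were both higher. Each gene's change was taken as the 15 µM count minus the 0 µM count times the ratio of list lengths, 0.772, and is a difference in summits. Its median was -0.545 over members and 0 over all genes, and was 0 over members when only the highest-scoring 50% of each list was used. The 95% interval of the members' median, taken from ranked values, was -0.772 to 0. The all-gene value thus lay at its upper bound. The other families gave similar values: fewer summits were counted for 64.7% of cytosolic ribosomal protein, 59.7% of mitochondrial ribosomal protein and 62.0% of proteasome genes, with median changes of -0.772, -0.317 and -0.431.

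COX4I2, an isoform of subunit 4 known from lung and hypoxic cells, had the largest increase, from 18 to 30 summits (change 16.1), with no marked end of its own and 2 other protein-coding genes in its window. ATP5MC2, which also encodes the c subunit, went from 6 to 13 (change 8.37), UQCR10 from 3 to 7 (4.68), NDUFS7, an iron-sulfur core subunit, from 9 to 11 (4.05) and NDUFC2 from 6 to 8 (3.37). UQCR10 and NDUFC2 were also among the gained ends. The largest decreases were at ATP5PD, of the peripheral stalk, from 16 to 5 (-7.36), NDUFB10 from 9 to 2 (-4.95), ATP5F1D from 16 to 8 (-4.36), UQCRHL from 12 to 5 (-4.27) and NDUFA5 from 9 to 3 (-3.95). ATP5PD and ATP5F1D were lost ends as well, and NDUFB10 lies beside RPS2, a ribosomal protein gene. These windows hold other genes' elements, so a change in a window is not a change of the member itself.

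**Figure D4:**
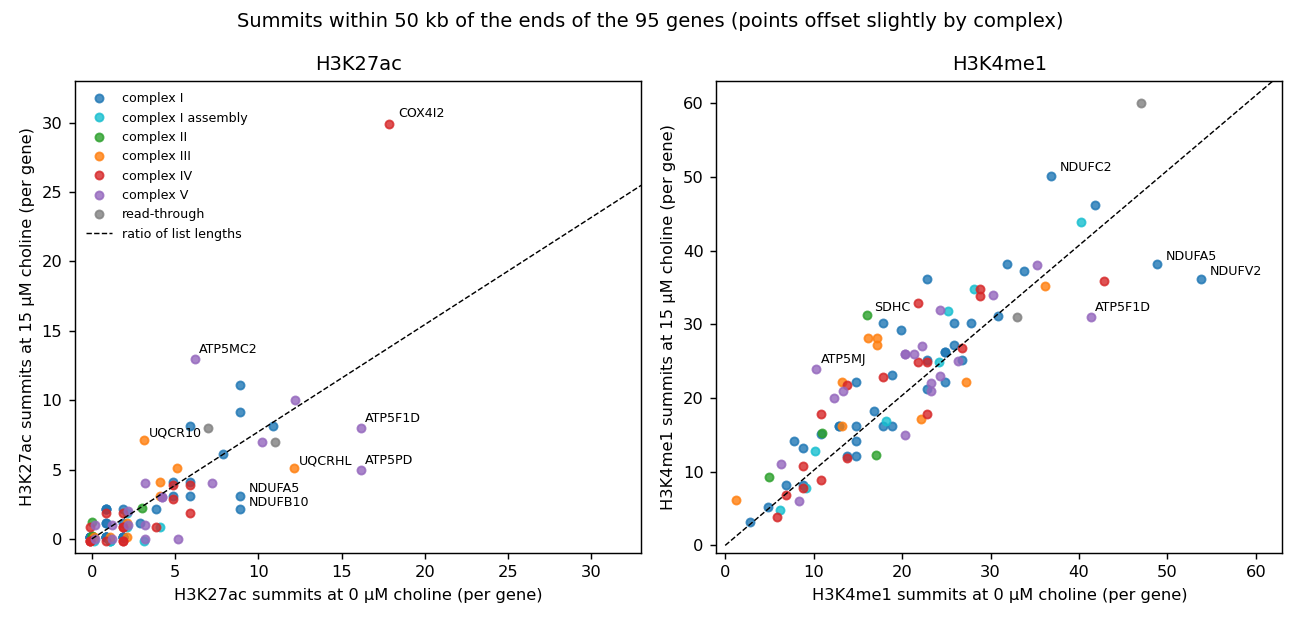
Summits within 50 kb of the ends of each of the 95 genes at 0 µM (x axis) and 15 µM choline (y axis) for H3K27ac (left) and H3K4me1 (right), coloured by complex. The dashed line is the ratio of list lengths. COX4I2 (18 and 30 H3K27ac summits) lies far above the line, and ATP5PD (16 and 5) below it.

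H3K4me1 was compared in the same way, in lists of 343156 summits at 0 µM and 349202 at 15 µM that reached down to scores of 1.31 and 1.30, where the H3K27ac lists began at 5.01. At 0 µM, 56 of 95 members had an H3K4me1 summit within 1 kb of an end (58.9%, interval 48.4 to 68.9) against 51.6% of all genes, and at 15 µM 54 did (56.8%, interval 46.3 to 67.0) against 52.9%. Both doses marked 38 of 95 members and 7315 of 19970 genes, and neither marked 23 members (24.2%, against 32.1% of all genes). Only 2 ends were lost, NDUFB10 and COX4I2 (3.57%, interval 0.435 to 12.3, against 8.92% of all genes), and 2 were gained, UQCRH and UQCRQ (3.70%, interval 0.452 to 12.7, against 10.9%). In the other members with a summit in 1 list alone, the other list had a summit between 1 and 2 kb away. The 2 lost ends had scores of 2.65 and 3.93 and the 2 gained ends 2.20 and 4.58, beside list medians of 3.48 and 3.47. When H3K4me1 summits were held to the lowest H3K27ac score, a limit chosen after seeing the data, 5 of 18 marked members were lost (27.8%, against 26.5% of all genes). Gained were 8 of 17 (47.1%, against 25.7%). These counts are small, and the differences were not tested. NDUFB10 and COX4I2 had no H3K27ac end at 0 µM.

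Around gene starts, the 2 marks took different places in the members. H3K27ac summits peaked in the 500 bp after the start, at 36.4 summits per 100 starts per kb at 0 µM and 26.0 at 15 µM. All genes had 25.9 and 11.1 in that zone. Cytosolic ribosomal protein genes had 79.4 and 26.5, mitochondrial ribosomal protein genes 66.7 and 20.3, and proteasome genes 54.5 and 27.3. The highest summit of a marked end lay a median of 102 bp downstream at 0 µM in the 25 members with a listed start. H3K4me1 summits of the members were scarce in the first 500 bp, at 2.60 per 100 starts per kb at 0 µM. They stood at 59.7 between 1000 and 500 bp upstream and at 57.1 and 58.4 in the zones from 500 to 1000 and from 1000 to 2000 bp downstream. All genes showed the same form with less contrast, at 12.4 in the first 500 bp, 37.7 upstream and 30.4 and 41.1 downstream. At 15 µM the member values were 5.19 in the first 500 bp, 59.7 upstream, and 33.8 and 77.9 downstream. The counts behind the low values are few, since there were 77 starts.

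**Figure D5:**
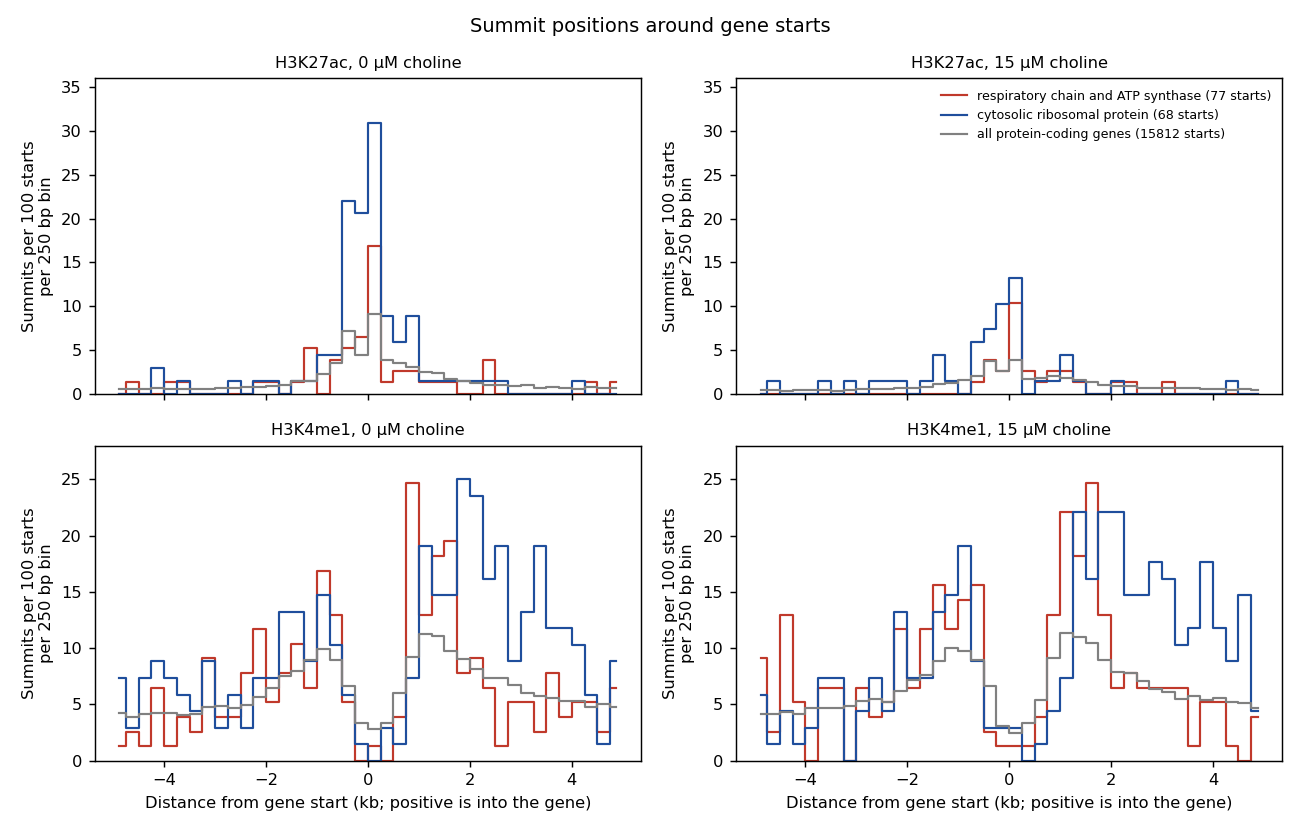
Summits per 100 gene starts in bins of 250 bp (y axis) against distance from the start (x axis, kb) for 77 respiratory chain and ATP synthase genes, 68 cytosolic ribosomal protein genes and 15812 protein-coding genes, for each mark and dose. For the respiratory chain and ATP synthase genes the highest H3K27ac bin was the first after the start, and H3K4me1 was high on both sides of the start and low at it.

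The flanking position appeared in the distances too. The median distance from a member's start to the nearest H3K4me1 summit was 983 bp at 0 µM and 1044 bp at 15 µM, against 1220 and 1197 bp for all genes. For H3K27ac it was 10767 and 36504 bp, against 28125 and 60023 bp. Within 500 bp of an end, 22.1% of members had an H3K4me1 summit at 0 µM against 26.9% of all genes, but within 2 kb 90.5% did (interval 82.8 to 95.6) against 73.5%, and at 15 µM 93.7% (interval 86.8 to 97.6) against 75.2%. At 500 bp the all-gene share lay inside the members' interval (14.2 to 31.8), and at 2 kb it lay below it. The share within 2 kb at 0 µM was 95.3% for cytosolic ribosomal protein, 94.8% for mitochondrial ribosomal protein and 86.0% for proteasome genes. Among 72 members longer than 2 kb with a known strand, 30 had an H3K27ac summit within 1 kb of a start at 0 µM (41.7%, against 31.7% of all such genes) and 2 at the far end (2.78%, against 3.52%). At 15 µM 18 of 72 had one at a start (against 18.1% of all such genes) and 0 at the far end (of 72, an upper bound of 4.99%, against 2.47%). H3K4me1 was found at 37 starts and 18 far ends at 0 µM (51.4% for starts, against 46.8% at starts and 23.3% at far ends of all such genes), and at 37 and 20 at 15 µM (51.4% and 27.8%, against 46.4% and 24.99%). Both marks were thus found at starts more often than at far ends in members and in all genes.

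The marks were then combined for each gene, each mark counted within 1 kb of either end. The 2 marks of a gene could therefore lie at opposite ends. At NDUFS1, for example, the 0 µM H3K27ac summit lay 282 bp upstream of the start and the H3K4me1 summit 43972 bp downstream. At 0 µM, 20 members had both marks, 16 had H3K27ac alone, 36 had H3K4me1 alone and 23 had neither. At 15 µM the counts were 13, 4, 41 and 37. H3K27ac alone at 0 µM was found at ATP5MG, ATP5PF, NDUFB3, UQCRB, UQCRC2 and UQCRH among others. At 0 µM, 18.1% of all genes had both marks, 10.2% H3K27ac alone, 33.6% H3K4me1 alone and 38.1% neither, beside 21.1%, 16.8%, 37.9% and 24.2% of members. At 15 µM the shares were 10.2%, 5.95%, 42.7% and 41.2% of all genes, beside 13.7%, 4.21%, 43.2% and 38.9% of members.

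H3K4me1 windows went the other way from H3K27ac windows. Summits within 50 kb of members numbered 1939 at 0 µM and 2163 at 15 µM, a ratio of 1.12 against 1.02 for all genes. More summits at 15 µM were counted for 58 members (61.1%, against 48.9% of all genes), fewer for 32 (33.7%, against 41.6%) and as many for 5. The median change was 1.84 summits for members, -0.0176 for all genes, 2.54 for mitochondrial ribosomal protein genes, -0.194 for cytosolic ribosomal protein genes and -2.14 for proteasome genes. The other families thus stood on both sides of 0, with members and mitochondrial ribosomal protein genes above it.

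SDHC had the largest H3K4me1 increase, from 16 to 31 summits (change 14.7), in a window where H3K27ac went from 3 to 2. ATP5MJ, a small subunit bound to the ATP synthase membrane part, went from 10 to 24 (13.8), NDUFC2 from 37 to 50 (12.3) and the overlapping NDUFC2-KCTD14 from 47 to 60 (12.2). UQCRH went from 16 to 28 (11.7). The largest decreases were at NDUFV2, from 54 to 36 (-19.0), NDUFA5, from 49 to 38 (-11.9), ATP5F1D, from 41 to 31 (-10.7), COX6B2, a testis isoform, from 43 to 36 (-7.76) and UQCRC2, from 27 to 22 (-5.48). NDUFV2 thus had the highest-scoring H3K27ac end and the largest decrease in H3K4me1 summits of the set, while its H3K27ac window went from 11 to 8. By complex, the median H3K4me1 change was 0.736 for complex I, 3.86 for complex II, 4.98 for complex III, 1.59 for complex IV and 4.04 for complex V.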

How the data were processed

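The authors deposited 1 summit list for each mark and dose, with scored positions. Judged by the MACS2 layout of the deposited lists, scores are −log10 values of either a p-value or a q-value. Tools named without versions in the submitters' processing notes are Bowtie, Picard, deepTools and MACS2, and the build is hg38. Calling thresholds, use of the 4 input libraries and treatment of reads with several positions are not given in the sources used here. Groups came from the labels, and the H3K4me1 summit names carry letters instead of doses. The 3 RNA samples, 4 inputs and 1 KLF5 CUT&Tag sample were not analysed here. Summits of chromosomes 1 to 22 and X were joined to the RefSeq gene table and promoter windows (250 bases before to 50 after a start) of GRCh38.p14, an assembly of the same family as hg38; exon and UTR annotation was not used. Counts were made with Python 3.11.15, pandas 2.3.3 and SciPy 1.17.1 and tested on simulated data. The members and lists were chosen with earlier results of these data known. Named genes were all gained H3K27ac ends, per complex up to 4 lost and 4 kept by 0 µM score, the 5 largest increases and decreases of 50 kb counts per mark, and lost or gained H3K4me1 ends. Others were named after their values were seen. A gene that this rule would name is not reported here.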

Additional observations from a re-analysis of the deposited data

How the results depend on the processing

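Of 78 alternatives to the 10 results of the gene ends and windows, 62 gave a value inside the interval of the reported one. The share of lost H3K27ac ends ranged from 41.7% (no 15 µM summit within 10 kb, against 34.3% of all genes) to 63.0% (highest-scoring 50% of each list, against 54.7%). That of gained ends ranged from 17.6% (10 kb limit, against 5.67% of all genes) to the reported 29.4% (against 10.5%). With gene starts alone, 48.4% of marked members were lost, against 43.8% of all genes. The median H3K27ac window change was -1 with lists of equal length and -1 without scaling, 0 in the highest-scoring 50% of each list, -0.0891 in 20 kb windows, -0.634 in 100 kb windows and -0.317 for subunit genes alone. H3K4me1 ends depended most on the settings. Marked shares at 0 µM and 15 µM were 22.1% and 22.1% within 500 bp, 90.5% and 93.7% within 2 kb, and 29.5% and 35.8% in the highest-scoring 50%. The all-gene shares were 26.9% and 27.7%, 73.5% and 75.2%, and 31.5% and 32.0% in the same order. With a score limit at the lowest H3K27ac score, chosen after seeing the data, the members' shares were 18.9% and 17.9% (against 19.8% and 18.5% of all genes). Under that limit 27.8% were lost (5 of 18) and 47.1% gained (8 of 17), against 26.5% and 25.7% of all genes. The H3K4me1 lost share was 0 under a 10 kb limit of absence (against 1.77% of all genes) and 0 with gene starts alone (against 10.3%). The gained share was 0 under the 10 kb limit (against 2.10%) and 20.6% in the highest-scoring 50% (against 19.4%). The cause of these shifts was not tested. No paired analysis was possible because each mark and dose has 1 library. Read depth is unknown, so a missing summit may lie below the calling threshold.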
